A study of Mus musculus with 12 samples.

Results

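The genes described are the transcriptional repressors of the mammalian circadian clock, the period genes Per1, Per2 and Per3 and the cryptochrome genes Cry1 and Cry2. They were taken by symbol from a table of 40840 genes, and all 5 were present, had counts in all 12 libraries and passed the filter on low counts. In the clock, the activators BMAL1 (gene Arntl) and CLOCK drive transcription of Per and Cry genes through E-box elements. PER and CRY proteins then gather in complexes with casein kinases, enter the nucleus and repress those activators, until phosphorylation and ubiquitin-dependent degradation remove them. Pancreatic acinar and islet cells have their own clocks, which meal times and hormones can set.

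The study asked how time of day shapes the pancreatic transcriptome of aged and young animals. Whole pancreas came from males of C57BL/6J, an inbred mouse strain in wide laboratory use, and the labels name no engineered allele. The Old mice were entered at 24 months and killed at 25 months, and the Young mice were entered at 4 months and killed at 5 months. Both had chow ad libitum and 4 weeks of single housing under 12 h of light and 12 h of darkness, and tissue was taken in the dark. Each age had 6 libraries, 1 at each of 4, 8, 12, 16, 20 and 24 h of labelled zeitgeber time (ZT), so there was no repeat of a time within an age. The sources used here do not say whether a library is 1 animal or a pool, or how many hours of darkness preceded collection. All p-values therefore measure scatter of single libraries around a fitted curve.

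Totals ran between 1030189 and 1404038 counts in 11 of the libraries, whereas Young 4 h had 2918805. Levels are in CPM, the usual scaling of counts to a common library total. A floor of 3 counts is 1.03 CPM in Young 4 h and 2.14 to 2.91 CPM elsewhere, for counting error only. Summed acinar markers made up 178000 to 260000 CPM in Old libraries and 185000 to 255000 CPM in Young libraries other than 4 h, although Amy2a5, 1 of the 8 listed, had no count in the 11. The library Young 4 h stood apart from these: its acinar sum was 105000 CPM, its central neuron markers summed to 1010 CPM against at most 5.13 CPM in Old and 7.77 CPM in the other Young libraries, and its central glia markers to 1900 CPM against at most 37.7 and 27.3 CPM. The test outcomes of the 5 genes are given with it (12 libraries) and without it (11 libraries). Some other values are given for 11 libraries only, among them mean levels per kilobase, most peak differences and some tests of other clock genes. The part of those neural transcripts in the levels at Young 4 h was not tested. In whole tissue, fewer cells of a type and less RNA per cell cannot be told apart.

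The promoters of these genes are where the loop closes, so the 250 bases before the transcription start are shown for Per1, Per3 and Cry1, which passed the rhythm test given further on and whose promoters differ in the elements they hold. RefSeq promoter sequences (GRCm38.p6) were used for Per1, Per3, Cry1 and Cry2 and not for Per2, 5 sequences in all because Per1 had a pair of starts. Capitals mark matches to an E-box (CACGTG), an E-box variant (CACGTT, here AACGTG on the printed strand), a D-box (TTATGTAA), a D-box variant (TTATGCAA) and the first 7 letters of a cAMP response element (TGACGTC). Each line reads 5′ to 3′ on the strand of the gene.
Per1, first start, chr11:69098699-69098948, plus strand: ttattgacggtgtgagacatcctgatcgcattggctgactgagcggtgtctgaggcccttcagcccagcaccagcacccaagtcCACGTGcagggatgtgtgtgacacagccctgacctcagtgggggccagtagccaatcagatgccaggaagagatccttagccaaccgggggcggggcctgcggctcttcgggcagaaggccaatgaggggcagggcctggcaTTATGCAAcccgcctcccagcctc
Per1, second start, chr11:69099902-69100151, plus strand: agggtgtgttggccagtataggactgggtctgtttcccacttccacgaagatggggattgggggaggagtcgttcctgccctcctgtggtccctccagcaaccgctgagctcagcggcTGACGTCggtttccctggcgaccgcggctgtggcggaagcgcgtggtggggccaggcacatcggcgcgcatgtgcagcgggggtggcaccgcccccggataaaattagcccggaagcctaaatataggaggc
Per3, chr4:151044666-151044915, minus strand: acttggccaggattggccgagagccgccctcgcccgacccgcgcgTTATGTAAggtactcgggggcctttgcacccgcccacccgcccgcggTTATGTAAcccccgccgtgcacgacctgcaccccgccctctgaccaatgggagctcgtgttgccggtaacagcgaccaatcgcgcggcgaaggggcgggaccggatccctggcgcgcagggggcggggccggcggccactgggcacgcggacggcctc
Cry1, chr10:85185055-85185304, minus strand: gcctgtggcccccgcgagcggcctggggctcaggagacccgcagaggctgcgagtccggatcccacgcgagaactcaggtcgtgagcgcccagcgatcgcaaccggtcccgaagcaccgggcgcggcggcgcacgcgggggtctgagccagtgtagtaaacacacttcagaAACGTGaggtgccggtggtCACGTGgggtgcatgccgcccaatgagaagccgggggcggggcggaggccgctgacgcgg
The Per1 sequence at its first start held an E-box beginning 166 bases before the start and the D-box variant 24 bases before it. The second start had the cAMP element letters 132 bases before it. Per3 had no E-box letters in the window and held 2 D-boxes, 205 and 158 bases before its start. Cry1 held an E-box 60 bases and an E-box variant 79 bases before its start, and Cry2 held a single E-box variant 166 bases before its start. Both strands of the 32851 promoters of 300 bases in the same table were searched: 7.15% held CACGTG, 4.68% CACGTT, 0.938% TTATGTAA, 0.743% TTATGCAA, 3.21% TGACGTC (1.79% the full TGACGTCA, which contains it) and 2.61% the ROR element TAGGTCA, which none of the 5 sequences had. A match of letters is not a bound site.

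A single 24 h curve shared by both ages was fitted first, because it uses every library. The Per genes and Cry1 changed over the day, with fitted peaks that came first for Per3 and Per1, later for Per2 and last for Cry1. Without Young 4 h, 4 of the 5 genes passed (Per1, Per2, Per3 and Cry1), where 1.49% of the 5852 tested genes passed. With all 12 libraries, 3 of the 5 passed (Per1, Per2 and Per3), where 0.155% of 5808 did. The median amplitude of the 5, measured in log2 units as the height of the peak above the curve's mean, was 1.18 against 0.23 for all tested genes in 11 libraries, and 1.29 against 0.27 in 12. These genes are long known to cycle, so these medians describe and test nothing.

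**Figure D1:**
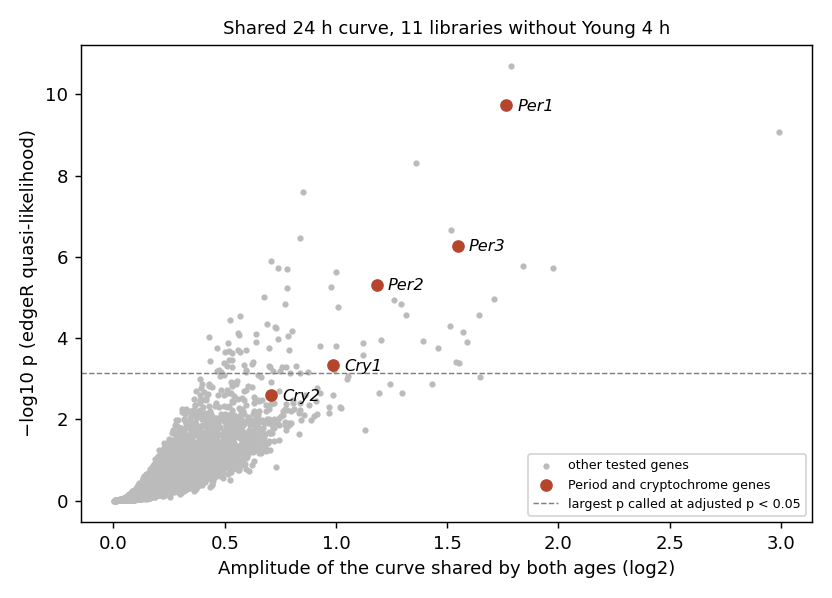
Amplitude of the curve shared by both ages (x axis, log2) against −log10 of the edgeR quasi-likelihood p (y axis) for the 5852 genes tested in 11 libraries, with the 5 period and cryptochrome genes in red and the dashed line at the largest p still called. Per1, Per3, Per2 and Cry1 lie above the line with amplitudes of 1.77, 1.55, 1.18 and 0.99, and Cry2 lies below it at 0.71.

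Per1, whose product is a core repressor and whose transcription responds quickly to hormonal and light signals, had the widest daily swing of the 5. It lies at chr11:69095217-69109960 on the plus strand (GENCODE vM21, GRCm38). Old libraries held 15, 58, 78, 30, 16 and 3 counts at 4, 8, 12, 16, 20 and 24 h, or 10.7, 45.5, 60.3, 22.1, 12.8 and 2.57 CPM. Young libraries held 73, 54, 76, 26, 13 and 5 counts, or 25.0, 44.8, 64.6, 25.2, 11.1 and 3.78 CPM. Both ages were highest at 12 h, next highest at 8 h and lowest at 24 h. The level at 12 h was 23.5 times that at 24 h in Old (95% counting interval 7.74 to 116) and 17.1 times in Young (7.01 to 54.1). The shared curve had an amplitude of 1.77 and a peak at 11.3 h in 11 libraries (edgeR quasi-likelihood test with Benjamini-Hochberg adjustment, adjusted p = 5.44e-07), and 1.74 and 11.3 h in 12 (adjusted p = 0.00117). Its p was the second smallest of all tested genes in both fits.

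Per2, a core repressor whose loss disturbs behavioural rhythms in mice, had a later fitted peak than Per1. It lies at chr1:91415982-91459324 on the minus strand. Old libraries held 5, 32, 45, 31, 25 and 7 counts from 4 to 24 h, or 3.56, 25.1, 34.8, 22.9, 20.0 and 5.99 CPM. Young libraries held 32, 20, 45, 32, 21 and 11 counts, or 11.0, 16.6, 38.3, 31.1, 17.9 and 8.32 CPM. Per2 was highest at 12 h in both ages, like Per1, but declined more slowly. Between 12 and 20 h, Per1 fell from 60.3 to 12.8 CPM in Old and from 64.6 to 11.1 CPM in Young. Per2 fell from 34.8 to 20.0 CPM in Old and from 38.3 to 17.9 CPM in Young. Its level at 8 h was 1.26 times that at 20 h in Old (0.722 to 2.21) and 0.927 times in Young (0.477 to 1.80), intervals that include 1, while the same ratio for Per1 was 3.56 (2.02 to 6.64) in Old and 4.04 (2.18 to 8.07) in Young. The shared amplitude of Per2 was 1.18 with a peak at 13.7 h in 11 libraries (edgeR quasi-likelihood test with Benjamini-Hochberg adjustment, adjusted p = 0.00188) and 1.29 with a peak at 13.8 h in 12 (adjusted p = 0.0400).

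Per3, a paralogue that is dispensable for the core oscillator in mice, had the earliest peak of the shared curve, not separated from that of Per1. It lies at chr4:151003652-151044665 on the minus strand, wholly within the same-strand gene Camta1, with no shared exon. Old libraries held 3, 45, 31, 17, 7 and 5 counts from 4 to 24 h, or 2.14, 35.3, 24.0, 12.5, 5.59 and 4.28 CPM. Young libraries held 63, 33, 41, 11, 6 and 8 counts, or 21.6, 27.4, 34.9, 10.7, 5.12 and 6.05 CPM. Old was highest at 8 h and lowest at 4 h, and Young was highest at 12 h and lowest at 20 h. Camta1 had 607 counts in Young 4 h and 2 to 8 in every other library, and its part in the 63 Per3 counts there was not tested. The shared amplitude was 1.55 with a peak at 10.5 h in 11 libraries (edgeR quasi-likelihood test with Benjamini-Hochberg adjustment, adjusted p = 0.000392) and 1.49 with a peak at 10.4 h in 12 (adjusted p = 0.0447).

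Cry1, the stronger and later-acting cryptochrome repressor, was high later in the day than the Per genes. It lies at chr10:85131700-85185064 on the minus strand. Old libraries held 6, 9, 25, 32, 31 and 12 counts from 4 to 24 h, or 4.27, 7.06, 19.3, 23.6, 24.7 and 10.3 CPM. Young libraries held 46, 7, 13, 22, 12 and 23 counts, or 15.8, 5.81, 11.1, 21.4, 10.2 and 17.4 CPM. In Old the values climb to a plateau over 12 to 20 h, whereas in Young the values alternate from 16 h on, with 20 h below both of its neighbours. In Old, the level at 16 h was 5.52 times that at 4 h (2.28 to 16.2). The shared amplitude was 0.99 with a peak at 17.5 h in 11 libraries (edgeR quasi-likelihood test with Benjamini-Hochberg adjustment, adjusted p = 0.0396) and 0.86 with a peak at 17.8 h in 12, where it did not pass (adjusted p = 0.350). The 11-library call is the least secure of the 4: leaving out any of Young 8 h, Young 16 h, or Old 4, 8, 12, 16 or 20 h ended it, with adjusted p up to 0.224 by edgeR. It was also lost with times as a factor in the 11 libraries (edgeR, adjusted p = 0.159), where Per1, Per2 and Per3 passed. Summed islet markers were also high at 16 h, with 765 CPM in Old and 703 CPM in Young against 39.4 and 34.8 CPM at 24 h. At 20 h the islet sum was 212 CPM in Old, beside 24.7 CPM of Cry1, and 566 CPM in Young, beside 10.2 CPM. At 24 h in Young, Cry1 was at 17.4 CPM. All 5 tested islet genes passed the shared test in 11 libraries and 0 in 12, where 1.49% and 0.155% of all tested genes passed. The part of islet cells in the Cry1 curve was not tested.

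Cry2, the cryptochrome whose loss lengthens the free-running period in mice, had the smallest amplitude of the shared curve. It lies at chr2:92403646-92434043 on the minus strand and shares 295 bp of exon with the antisense transcript D930015M05Rik, which had at most 1 count per library. Old libraries held 13, 18, 23, 21, 18 and 7 counts from 4 to 24 h, or 9.26, 14.1, 17.8, 15.5, 14.4 and 5.99 CPM. Young libraries held 127, 21, 30, 17, 18 and 7 counts, or 43.5, 17.4, 25.5, 16.5, 15.4 and 5.30 CPM. Apart from Young 4 h, the highest Cry2 value of all 12 libraries, both ages were highest at 12 h and lowest at 24 h. The level at 12 h was 2.97 times that at 24 h in Old (1.23 to 8.19) and 4.82 times in Young (2.07 to 13.0). Neither shared curve passed: the amplitude was 0.71 with a peak at 13.1 h in 11 libraries (edgeR quasi-likelihood test with Benjamini-Hochberg adjustment, adjusted p = 0.114, unadjusted p = 0.00259) and 0.48 with a peak at 11.4 h in 12 (adjusted p = 0.568).

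**Figure D2:**
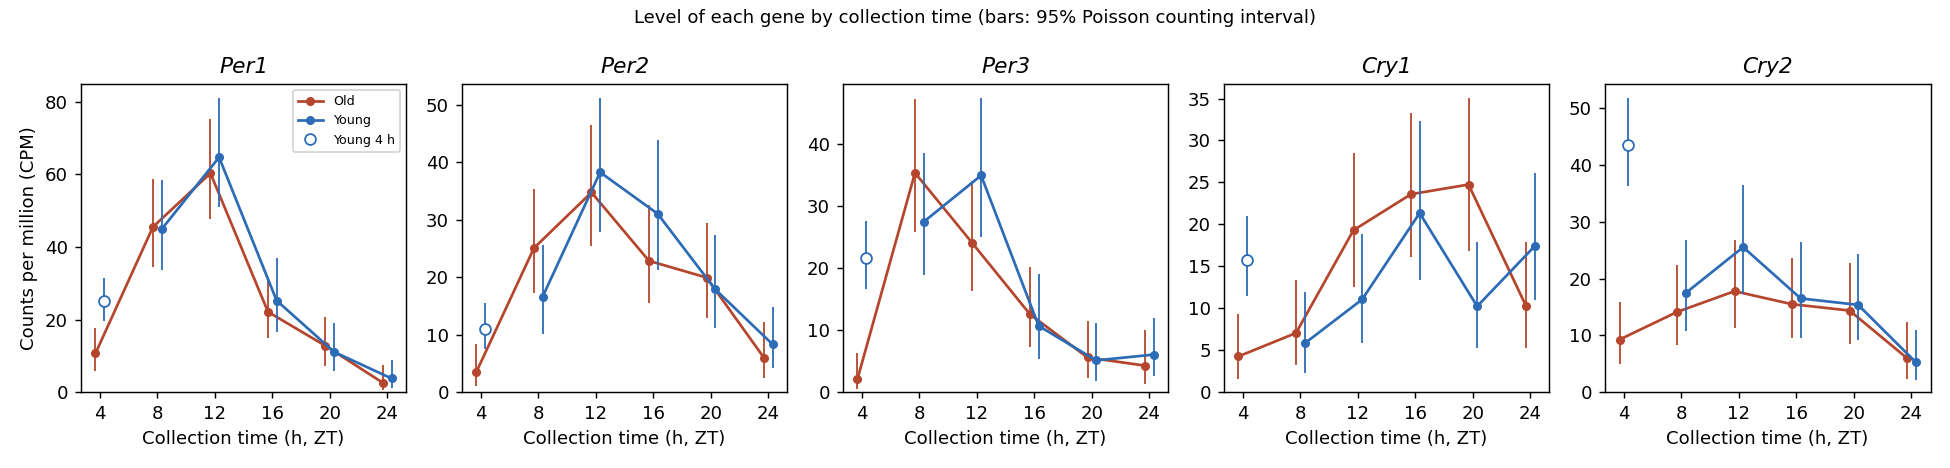
CPM (y axis) of each gene at each collection time (x axis, h of zeitgeber time) in Old (red) and Young (blue) libraries, 1 library per point, with bars for the 95% Poisson counting interval and the library Young 4 h as an open circle. Per1 and Per3 have their highest points at 8 and 12 h in both ages, Per2 its highest at 12 h, and the Young 4 h point of Cry2 at 43.5 CPM is above every other Cry2 value.

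Levels of different genes were set against one another per kilobase of exon. In the 11 libraries, Per1 averaged 4.90 CPM per kb, Cry1 4.22, Per2 3.48, Cry2 2.26 and Per3 1.59. Neighbours in this order overlap over the day, because the daily range of each gene is wide. The balance of the repressors moved with time. The 3 Per genes summed to 2.73, 16.0, 19.1, 9.14, 6.26 and 1.92 CPM per kb from 4 to 24 h in Old, and the Cry pair to 2.74, 4.35, 8.60, 9.52, 9.68 and 4.02. In Young the Per sum was 8.56, 13.7, 21.6, 10.9, 5.56 and 2.72 CPM per kb and the Cry sum 11.6, 4.50, 7.35, 9.00, 5.50 and 6.05. The Per sum exceeded the Cry sum at 8 and 12 h in both ages and lay below it at 24 h in both. Raw counts are not corrected for exon length, so their ratio serves only to compare times. There were 5.00 Per counts for each Cry count at 8 h in Old (3.29 to 7.87) and 3.82 in Young (2.50 to 6.02), against 0.789 (0.373 to 1.64) and 0.800 (0.448 to 1.42) at 24 h.

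The order of the peaks was read from least squares curves to log2 CPM with a mean for each age. In 11 libraries the peaks came at 11.0 h for Per3, 11.5 h for Per1, 13.1 h for Cry2, 13.9 h for Per2 and 17.4 h for Cry1. Per1 peaked before Per2, with a difference of -2.39 h (95% interval -3.69 to -1.09 h), and before Cry1, with -5.85 h (-8.06 to -3.63 h), and Per2 peaked before Cry1, with -3.46 h (-5.70 to -1.22 h). Per2 peaked 2.91 h after Per3 (1.27 to 4.56 h), and Cry1 4.26 h after Cry2 (1.28 to 7.23 h). The peaks of Per1 and Per3 were not separated, with a difference of 0.52 h and an interval of -1.59 to 2.63 h, nor were those of Per2 and Cry2 (0.80 h, -1.28 to 2.88 h) or Per3 and Cry2 (-2.11 h, -4.95 to 0.72 h). With all 12 libraries, Per1 still preceded Per2 (-2.57 h, -3.80 to -1.34 h) and Cry1 (-6.19 h, -8.60 to -3.77 h), but the interval between Per1 and Cry2 came to include 0 (-0.59 h, -3.37 to 2.19 h). Within 1 age the order was less well separated. In Old, Per1, Per2 and Per3 peaked before Cry1 with intervals that exclude 0 (Per1 minus Cry1 -5.14 h, -7.61 to -2.68 h), but Per1 and Per2 were not separated (-2.15 h, -5.13 to 0.82 h). In Young without 4 h, Per2 was separated from Per1 (Per1 minus Per2 -2.66 h, -5.17 to -0.14 h) and from Per3 (4.53 h, 2.67 to 6.39 h), but every interval with Cry1 included 0 (Per1 minus Cry1 -7.80 h, -18.6 to 2.97 h). Samples were 4 h apart, and the intervals assume that each gene follows a cosine. A limit such as -18.6 h lies beyond any difference possible on a 24 h cycle, so such an interval leaves the order undetermined.

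Each age was then given its own curve, to ask whether the rhythm is found in the aged pancreas and in the young one. In the edgeR test both curves came from 1 fit with a shared estimate of spread, so Young 4 h also enters the test in Old. That spread, as a biological coefficient of variation between libraries, was 0.299 in 12 libraries and 0.178 in 11. With all 12 libraries none of the 5 passed in Old (edgeR quasi-likelihood test with Benjamini-Hochberg adjustment, adjusted p of Per1 = 0.106), as 0% of tested genes did. At an unadjusted p under 0.05 there were 4 of the 5 in Old, against 201 of all genes (3.46%). None of the 5 passed in Young either (edgeR, adjusted p of Per1 = 0.0957), where 0.0517% of genes did, and 3 of the 5 had an unadjusted p under 0.05, against 765 of all genes (13.2%). Without Young 4 h, 4 of the 5 passed in Old, where 0.752% of tested genes did. By the edgeR test these were Per1 with an amplitude of 1.81 (adjusted p = 0.000313), Per3 with 1.74 (adjusted p = 0.0130), Per2 with 1.29 (adjusted p = 0.0239) and Cry1 with 1.27 (adjusted p = 0.0411), and Cry2 with 0.64 did not pass (adjusted p = 0.475). In Young, 1 of the 5 passed, where 0.171% of genes did: Per1, with an amplitude of 1.70 (edgeR, adjusted p = 0.00125). Per3 had an amplitude of 1.38 in Young (edgeR, adjusted p = 0.164), Per2 1.07 (0.535), Cry2 0.78 (0.891) and Cry1 0.63 (0.930). Unadjusted, 4 of the 5 had a p under 0.05 in Young, against 5.33% of all genes. Without Young 4 h, Young has 5 libraries against 6 in Old, so the counts of genes passed in the ages are not comparable. The Old calls of Per2 and Cry1 rested on single libraries: Per2 was lost without Old 4, 12 or 24 h (adjusted p up to 0.178) and Cry1 without any 1 of the 6 Old libraries (up to 0.278).

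The difference between the ages was tested directly, as an interaction of age with the curve. None of the 5 passed in 12 or in 11 libraries, where 0% of tested genes did. The smallest unadjusted p among the 5 was that of Cry1, 0.0925 in 12 libraries and 0.133 in 11 (edgeR quasi-likelihood test, adjusted p = 0.947 and 1.00), and over all genes 274 (4.72%) and 238 (4.07%) had an unadjusted p under 0.05. DESeq2 and limma-voom called none of the 5 either. Least squares fits gave the sizes behind this. The amplitude of Cry1 was 1.18 ± 0.13 in Old (SE, n = 6) and 0.55 ± 0.31 in Young (SE, n = 6), a difference of 0.63 ± 0.34. Its peak came at 16.7 ± 0.42 h in Old and 19.5 ± 2.14 h in Young, and without 4 h the Young curve had an amplitude of 0.57 ± 0.42 and a peak at 19.2 ± 2.86 h (SE, n = 5).

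The peak of Cry1 in Old minus that in Young was -2.74 ± 2.18 h. Fitted differences between the ages were smaller for the Per genes, a contrast with Cry1 that was not tested. Per1 had an amplitude of 1.81 ± 0.33 in Old (SE, n = 6) and 1.63 ± 0.21 in Young (SE, n = 6), with peaks at 11.6 ± 0.69 h and 11.2 ± 0.48 h. Per2 had amplitudes of 1.37 ± 0.38 in Old and 1.12 ± 0.10 in Young and peaks at 13.7 ± 1.07 h and 14.3 ± 0.35 h. Per3 peaked at 11.8 ± 1.32 h in Old and 9.7 ± 0.32 h in Young, a difference of 2.05 ± 1.36 h, with amplitudes of 1.48 ± 0.51 and 1.23 ± 0.10. For Cry2, the amplitude was 0.63 ± 0.19 in Old and 0.58 ± 0.41 in Young, with peaks at 13.4 ± 1.12 h and 10.4 ± 2.74 h. That difference of 2.93 ± 2.96 h came to 0.43 ± 1.85 h without Young 4 h. Each of these differences between ages lay within 2 SE of 0, which does not show the curves to be alike.

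**Figure D3:**
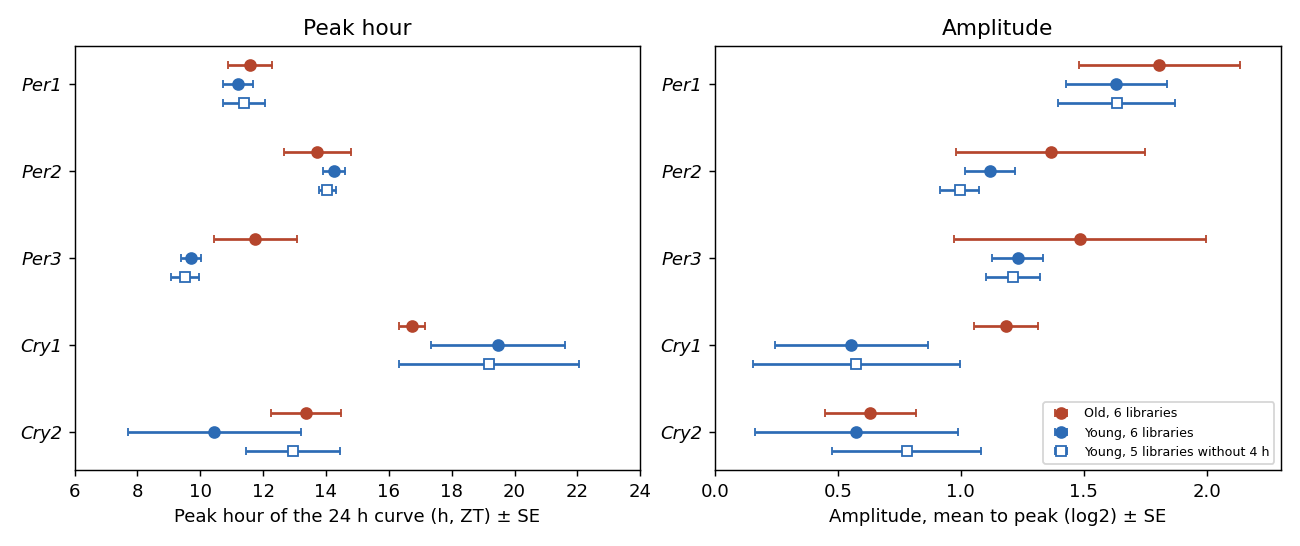
Peak hour (left, h of zeitgeber time) and amplitude (right, log2) of the least squares 24 h curve of each gene, with bars of 1 SE, for Old (red circles, 6 libraries), Young (blue circles, 6 libraries) and Young without 4 h (open blue squares, 5 libraries). The fitted peak of Cry1 is the latest of the 5 in both ages, and the SE of the Cry1 peak is 2.86 h in Young without 4 h against 0.42 h in Old.

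The last comparison asked whether the level, averaged over the day, differs with age. None of the 5 passed, where 0.0172% of tested genes passed in 12 libraries and 0.205% in 11 (0.137% higher and 0.0684% lower in Old). None had an unadjusted p under 0.05 by edgeR, DESeq2 or limma-voom, against 5.80% of all genes in 12 libraries and 6.15% in 11 by edgeR. Mean levels were 25.7 ± 22.5 CPM in Old and 29.1 ± 22.4 CPM in Young for Per1 (SD over times, n = 6 each), 18.7 ± 11.9 and 20.5 ± 11.7 for Per2, and 14.0 ± 13.1 and 17.6 ± 12.2 for Per3. Cry1 averaged 14.9 ± 8.81 CPM in Old and 13.6 ± 5.62 CPM in Young, and Cry2 12.8 ± 4.36 CPM in Old and 20.6 ± 12.9 CPM in Young. These SDs hold the daily swing, which the model takes out. The fitted log2 difference of Old over Young in 11 libraries was -0.09 ± 0.22 for Per1, -0.13 ± 0.24 for Per2, -0.23 ± 0.30 for Per3, 0.21 ± 0.28 for Cry1 and -0.22 ± 0.25 for Cry2 (± SE). All 5 adjusted p were 0.963 or more (edgeR quasi-likelihood test, Benjamini-Hochberg adjustment). In 12 libraries the difference farthest from 0 was that of Cry2, -0.54 ± 0.31 (edgeR, adjusted p = 0.790, unadjusted p = 0.0990). The single Cry2 value of 43.5 CPM at Young 4 h enters that estimate, and without it the Young mean of Cry2 was 16.0 ± 7.21 CPM (SD, n = 5).

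The ages were then set side by side at each time. Of the 25 pairs of libraries at 8 to 24 h, Old was higher in 12 and lower in 13, and the counting interval of the ratio excluded 1 in 1 of them. That pair was Cry1 at 20 h, with 31 counts in Old and 12 in Young and a ratio of 2.42 (1.21 to 5.17). At 4 h, all 5 genes were lower in the Old library, with ratios of 0.427 for Per1, 0.325 for Per2, 0.271 for Cry1, 0.213 for Cry2 and 0.0990 for Per3, all with intervals that exclude 1. That comparison rests on the library with the neural transcripts, and its ratios and intervals use column totals. The TMM factor, which rescales a library's total, was 1.788 for Young 4 h and 0.979 for Old 4 h. TMM-scaled, Old against Young CPM was 11.2 against 16.6 for Per1, 3.75 against 7.30 for Per2 and 4.50 against 10.5 for Cry1. For Cry2 it was 9.74 against 28.95, and for Per3 2.25 against 14.4. Old stayed lower in all 5 but by less, and no intervals were computed on that scale. The intervals given cover counting error alone, and each ratio has 1 library on either side.

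**Figure D4:**
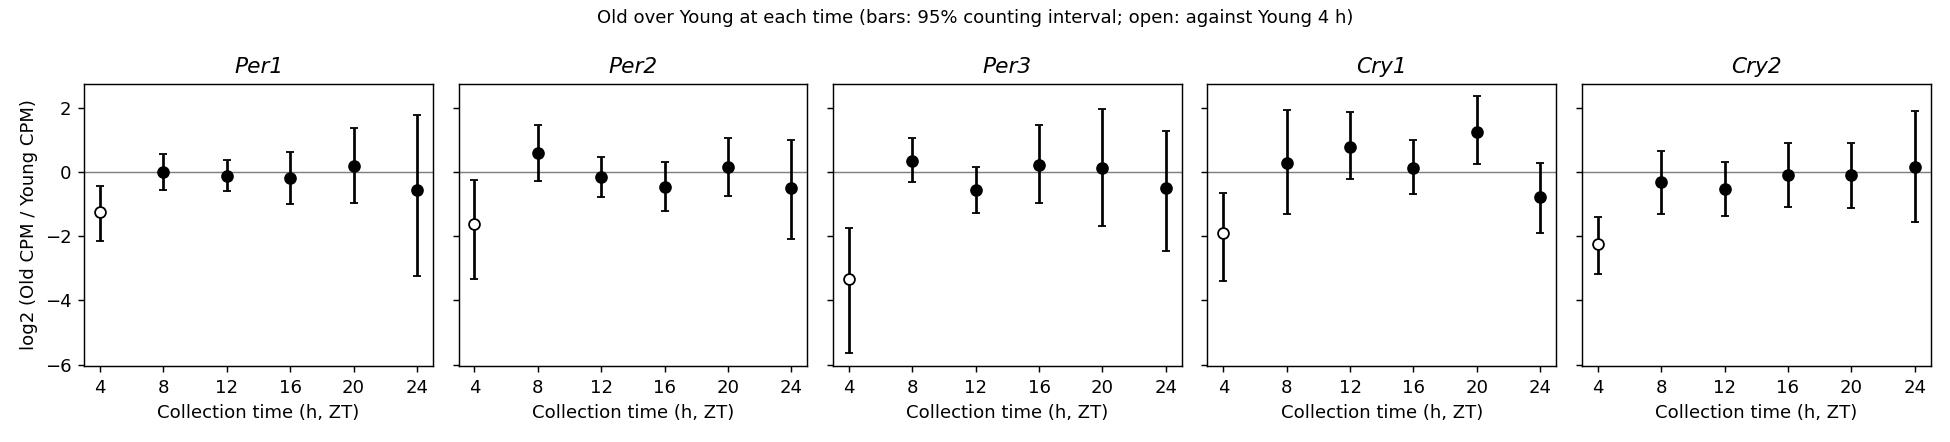
log2 of the ratio of Old CPM to Young CPM (y axis) for each gene at each collection time (x axis, h of zeitgeber time), with bars for the 95% counting interval and open symbols for the comparison with Young 4 h. At 8 to 24 h the bars cross 0 in 24 of 25 cases, the exception being Cry1 at 20 h, and at 4 h all 5 values lie below 0.

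Other genes of the loop were set beside these repressors, to place the peaks within the cycle. Of 17 genes of the positive arm and of the loops attached to it, 7 passed the filter on counts. Of these, 5 passed the shared test in 11 libraries and 4 in 12, where 1.49% and 0.155% of all tested genes passed. Arntl, which encodes BMAL1, had an amplitude of 2.99 with a peak at 23.2 h (edgeR quasi-likelihood test with Benjamini-Hochberg adjustment, adjusted p = 1.64e-06 in 11 libraries), nearly opposite to Per1. It had 35, 1, 0, 4, 36 and 45 counts from 4 to 24 h in Old and 69, 0, 0, 3, 35 and 40 in Young. Arntl was lowest at 8 and 12 h in both ages, the hours at which Per1 and Per3 had their highest levels. Nr1d2, a REV-ERB repressor of Arntl, peaked at 10.2 h with an amplitude of 1.79 (edgeR, adjusted p = 1.20e-07), and the PAR bZIP factor Tef, which binds D-boxes, peaked at 11.1 h with 1.36 (edgeR, adjusted p = 7.12e-06). Clock, the partner of BMAL1, peaked at 20.2 h with 0.59 (edgeR, adjusted p = 0.0223). It did not pass in 12 libraries (edgeR, adjusted p = 0.377).

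**Figure D5:**
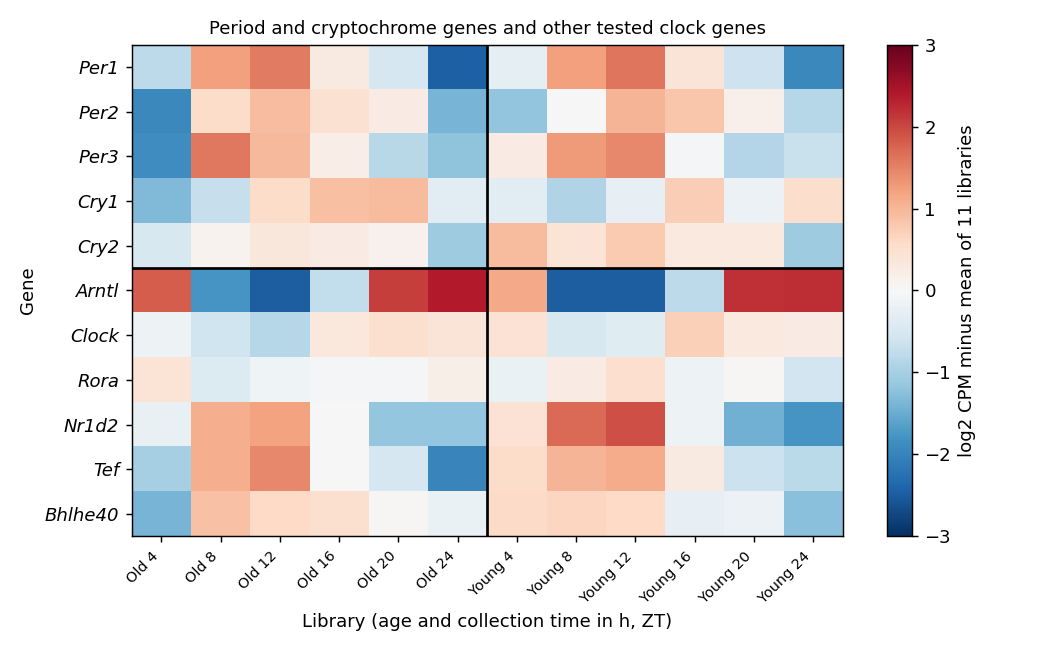
log2 CPM of each gene (rows) minus its mean over the 11 libraries other than Young 4 h, in each library (columns, Old on the left and Young on the right, by collection time), with the 5 period and cryptochrome genes above the line and 6 genes of the positive arm and attached loops below it. Per1, Per2 and Per3 are red at 12 h, where Arntl is deepest blue, and Cry1 is red at 16 h in both ages.

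Few genes that act on PER and CRY proteins passed the same test. None of 16 tested kinases and phosphatases passed the shared test, with a median amplitude of 0.24 in 11 libraries against 0.23 for all genes, and the smallest p was that of Csnk1a1, a casein kinase 1 gene (edgeR quasi-likelihood test with Benjamini-Hochberg adjustment, adjusted p = 0.490). Without adjustment, 0 of the 16 had a p under 0.05 in 11 libraries and 2 in 12, against 11.9% and 10.5% of all tested genes. Of 8 tested ubiquitin ligase and deubiquitinase genes, 1 passed, where 1.49% of all tested genes passed in 11 libraries and 0.155% in 12. It was Usp2, a deubiquitinase that acts on PER1, with an amplitude of 1.26 and a peak at 12.3 h (edgeR, adjusted p = 0.00330 in 11 libraries and 0.0400 in 12). None of 12 tested partners of the repressor complexes passed by edgeR, and 1 had an unadjusted p under 0.05 in 11 libraries and 3 in 12, beside the same 11.9% and 10.5% of all genes. A further list held inputs that induce Per1 or Per2 together with genes that respond to such inputs. Of its 11 tested genes, 1 passed in 11 libraries and 0 in 12, where 1.49% and 0.155% of all tested genes passed. The gene was Fkbp5, which is induced by glucocorticoids and is a response gene, not an input. It had an amplitude of 1.32 and a peak at 12.2 h (edgeR, adjusted p = 0.00634 in 11 and 0.131 in 12). No gene of these 5 lists passed the age test or the interaction in either set of libraries.

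Likeness of pattern was measured as Pearson's correlation of log2 CPM over the 11 libraries with each of 5713 genes, which share these libraries and their depth. Per1 was most like Tef (r = 0.966, and 0.944 over 12), Gucd1 (0.933, 0.782 over 12) and Wdr43 (0.921, 0.907), and least like Arntl (-0.931, -0.924) and Irf2bp2 (-0.918, -0.794). Per3 was most like Klf9 (0.940, 0.785), Stag2 (0.925, 0.880) and Tef (0.917, 0.912), and least like Arntl (-0.928, -0.903) and Leo1 (-0.865, -0.527). Tef and Arntl thus stand at the same ends for Per1 and Per3. Per2 was most like Retreg1 (0.918, 0.821), LOC118567716 (0.915, 0.913) and Azin1 (0.894, 0.836), and least like Tcn2 (-0.916, -0.468) and Otud4 (-0.870, -0.798). Cry1 was most like Cep350 (0.949, 0.923), Slc7a1 (0.947, 0.715) and Dennd6a (0.919, 0.706), and least like Ifrd1 (-0.918, -0.674) and H1f4 (-0.902, -0.871). Cry2 was most like Cenpc1 (0.937, 0.946), Usp33 (0.883, 0.881) and Per1 (0.881, 0.770), and least like Ndufa12 (-0.874, -0.284) and Soat1 (-0.822, -0.623). The low ends of Per2, Cry2 and Per3 moved most when Young 4 h was added. Among the 5 genes, r over 11 libraries was 0.863 between Per1 and Per3 (0.851 over 12), 0.782 between Per1 and Per2 (0.751) and 0.838 between Per2 and Cry2 (0.562). It was -0.05 between Per1 and Cry1 (-0.044 over 12) and 0.109 between Cry1 and Cry2 (0.043). The 2 cryptochromes were thus weakly correlated over the pooled libraries. Within 1 age their fitted peaks were not separated. Cry1 minus Cry2 was 3.35 h in Old (-0.31 to 7.01 h) and 6.23 h in Young without 4 h (-5.78 to 18.25 h). The upper limit in Young lies beyond any difference possible on a 24 h cycle, so the order there is undetermined.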

How the data were processed

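Polyadenylated RNA of mouse pancreas was sequenced as read pairs, per the labels' protocols, with an RNA integrity number above 8. The deposited table holds raw counts per gene symbol, aligned with STAR and counted with HTSeq on GRCm38 (mm10), per the submitters' processing notes, without versions. The sources used here do not give strand, annotation or the handling of multiply matching reads, and the deposited workbook's name refers to another counter, featureCounts. CPM were computed on column totals. Of 66 pairs of libraries, the closest had a chi-square of 2.49 per gene, so all 12 were kept.

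edgeR 4.0.16 (R 4.3.3) used filterByExpr by age, TMM scaling and quasi-likelihood F tests with Benjamini-Hochberg adjustment over all tested genes, called under 0.05. Models held age and a 24 h cosine curve, shared or per age. Least squares curves used log2 CPM (TMM, prior count 2) and delta-method errors. Ratios have exact conditional binomial intervals. DESeq2 1.42.0 and limma-voom (limma 3.58.1) were alternatives. Groups and times came from the labels. Fits were tested on simulated data. With 12 and 11 libraries, a shared amplitude of 1 log2 unit was recovered in 85% and 95% of changed genes. An age difference of 1 log2 unit was recovered in 46% and 71%. Curves of amplitude 0.5, opposite in Old and Young, were recovered in 14% and 40%. Of the age calls in 11 libraries, 7.57% were false. Real differences of these sizes between the ages can therefore be missed. The genes and lists, and the rule for named genes (all 5, up to 4 per list by smallest p, and the 3 highest and 2 lowest correlates without predicted genes), were chosen with earlier results of these data known; some genes the rule takes are not reported here. Gene models came from GENCODE vM21 and promoters from RefSeq GRCm38.p6.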

Additional observations from a re-analysis of the deposited data

How the results depend on the processing

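Per1 kept its shared call in every fit run. Counts of the 5 genes are given with all genes called in the same fit. With 12 libraries the shared test called 3 (9 of 5808 genes), 3 with DESeq2 (40) and 2 with limma-voom (8). It called 1 with library totals in place of TMM (4) and 1 with times as a factor (3). Leaving out each library gave 1 to 4 (4 to 87 genes): 1 without any of Old 12, 20 and 24 h or any Young library other than 4 h, and 4 without Young 4 h. Without Young 4 h the shared test called 4 (87 of 5852), and 4 with RLE or scaling free of digestive enzymes (85 each). It called 3 with DESeq2 (58), limma-voom (71) or library totals (60), and 3 with times as a factor (72). With Young 4 h and each other library left out it gave 3 to 4 (37 to 105). In Old, 0 were called with 12 libraries (0), 1 with no filter (14 of 28805) and 1 with DESeq2 (4). Without Young 4 h there were 4 (44 of 5852), 2 with DESeq2 (20), 1 with limma-voom (27), 4 with RLE or scaling free of digestive enzymes (43 each) and 3 with library totals (43). Leaving out each library gave 0 to 4 (0 to 44), and Young 4 h with each other 2 to 4 (20 to 78). In Young, 0 were called (3), 3 with no filter (1144 of 28805), 1 with a filter of 1 CPM in 6 libraries (50 of 11886) and 1 with DESeq2 (45). Without Young 4 h, edgeR, DESeq2, limma-voom and the 3 other scalings each called 1 (4 to 11). Leaving out each library gave 0 to 2 (2 to 435; 318 with Young 8 h left out, 435 with Young 24 h left out), and Young 4 h with each other 1 to 2 (8 to 21). The cause was not tested.

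The age test and the interaction called 0 of the 5 in every fit run, among them the age test with collection time, the number the ages share in the labels, as a replicate block (0 of the 5, and 0 without both 4 h libraries). The small log2 age differences of 3 genes turned sign: that of Cry1 was -0.10 with library totals and ran from -0.13 to 0.62 as libraries were left out, that of Per2 from -0.33 to 0.046 and that of Per1 from -0.31 to 0.0061. Fits without Young 4 h and another library, and other scalings or times as a factor without it, were chosen after seeing the data. Each level rests on 3 to 127 counts and 1 library per time and age, which limits its precision.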
